A study of Mus musculus with 24 samples.

Results

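The inward rectifier potassium channel genes Kcnj2, Kcnj3, Kcnj4, Kcnj6, Kcnj9, Kcnj11, Kcnj12 and Kcnj16 were followed in RNA of the mouse nucleus accumbens. They are 8 of the 55401 gene IDs in the deposited count table, found by matching each Ensembl ID to its gene symbol. Kcnj4 was selected on measured values, because its mean level differed between groups that received the Mef2c vector, and the other 7 were chosen by gene family. The values of Kcnj4 in every comparison with such a group are therefore a description and carry no test.

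The tissue was bulk accumbens, punched from both hemispheres, and its RNA was made into stranded mRNA libraries. Mice had either SNI, a tibial spared nerve injury made on the left sciatic nerve to model lasting neuropathic pain, or a sham operation that spared the nerves. All groups had received AAV8 vectors in both hemispheres, AAV8-hSyn-Mef2c-Egfp (called the Mef2c vector here) or AAV8-hSyn-Egfp (the Gfp vector), so no group was free of virus. The 24 libraries form 4 groups of 6, namely SNI Mef2c, SNI Gfp, Sham Mef2c and Sham Gfp. The hSyn promoter is active in neurons, so glia were not the intended target of either vector. Mice were C57BL/6J or DBA/2J, 8 to 9 weeks old when obtained, and which strain gave which library is not given in the sources used here. Nor are the mice behind each library, so p-values measure only the spread between libraries, part of which may be technical.

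Inward rectifiers are tetrameric channels that pass potassium more readily into the cell than out of it, and so hold the resting potential near the potassium equilibrium. In medium spiny neurons, the main cell type of the accumbens, the classical Kir2 channels keep the membrane strongly hyperpolarised between bursts of input. Kcnj2, Kcnj12 and Kcnj4 encode the classical subunits Kir2.1, Kir2.2 and Kir2.3. Kcnj3, Kcnj6 and Kcnj9 encode GIRK1, GIRK2 and GIRK3, which are opened by G protein βγ subunits released from inhibitory receptors. Kcnj11 encodes Kir6.2, the pore of ATP-sensitive (KATP) channels, and Kcnj16 encodes Kir5.1, which joins Kir4.1 (Kcnj10) in glia and epithelia.

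The DNA upstream of 3 of the genes is shown because Kcnj4 and Kcnj2 varied together across most libraries and because the upstream DNA of Kcnj9 holds a match to the motif bound by MEF2 factors. Each run gives the 250 bases before the RefSeq start, 5′ to 3′ on the strand of the gene, on GRCm38.p6. They lie at chr15:79505242-79505491 on the minus strand (Kcnj4), chr11:111065914-111066163 on the plus strand (Kcnj2) and chr1:172329323-172329572 on the minus strand (Kcnj9). Capitals mark GC boxes (GGGCGG or its reverse complement) in Kcnj4 and Kcnj2, a CRE half-site (TGACG) in Kcnj4, and a TATA box (TATAAA) followed by a MEF2 motif in Kcnj9.
Kcnj4: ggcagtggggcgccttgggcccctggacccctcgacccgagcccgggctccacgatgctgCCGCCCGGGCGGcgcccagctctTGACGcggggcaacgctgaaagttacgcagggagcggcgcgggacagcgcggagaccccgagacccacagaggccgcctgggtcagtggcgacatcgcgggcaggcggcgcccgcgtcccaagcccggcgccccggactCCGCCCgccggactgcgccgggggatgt
Kcnj2: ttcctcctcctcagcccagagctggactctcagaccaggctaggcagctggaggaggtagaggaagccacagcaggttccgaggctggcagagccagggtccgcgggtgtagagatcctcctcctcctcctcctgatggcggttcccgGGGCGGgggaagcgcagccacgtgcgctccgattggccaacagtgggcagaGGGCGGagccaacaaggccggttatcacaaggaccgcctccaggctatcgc
Kcnj9: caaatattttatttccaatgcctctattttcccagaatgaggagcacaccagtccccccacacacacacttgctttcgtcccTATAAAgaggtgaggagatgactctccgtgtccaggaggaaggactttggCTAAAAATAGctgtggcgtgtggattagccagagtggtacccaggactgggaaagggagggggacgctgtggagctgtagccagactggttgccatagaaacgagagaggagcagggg

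RefSeq promoter windows, 250 bases before to 50 after each start, were found for 7 of the 8 genes and gave 11 windows. All motifs, the TATA box included, were searched by their letters alone, on both strands and at any distance from the start. The Kcnj4 window was rich in G and C, at 76.0% with 41 CpG dinucleotides, against medians of 52.7% and 7 over all 32851 windows. A GC box was in 5 of the 11 windows and in 35.7% of all windows. A CRE half-site was in 2 of the 11, those of Kcnj4 and of 1 start of Kcnj6, and in 20.8% of all windows. The MEF2 motif was in 2 of the 11, those of Kcnj9 and of 1 start of Kcnj16, and in 3.19% of all windows. The TATA box was likewise in 2 of the 11, those of Kcnj9 and of another start of Kcnj16, and in 13.6% of all windows. In the Kcnj9 window the TATA box and the MEF2 motif do not overlap.

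On mm10 the genes span very different lengths. This matters because the deposited FPKM divide by whole gene spans, introns included, and the counts may hold intron reads. Kcnj6 spans 249066 bases at chr16:94748636-94997701 and Kcnj3 spans 162176 bases at chr2:55435970-55598145, 32.6 and 31.1 times the length of their exons. Kcnj16 (chr11:110968033-111027968) and Kcnj2 (chr11:111066164-111076821) are neighbours on chromosome 11, which also holds Kcnj12 (chr11:61022564-61071131). Kcnj4 lies at chr15:79483714-79505241, Kcnj9 at chr1:172320501-172329318 and Kcnj11 at chr7:46093953-46100764. Kcnj9, Kcnj11 and Kcnj2 are compact genes, with spans of 2.06, 1.85 and 1.96 times their exon lengths. The 3′ end of Kcnj6 is shared with the antisense gene Gm41505 over 4803 bases, 1.93% of its span. The counts of Gm41505 came to between 56.1% and 82.9% of those of Kcnj6 in each library, so the Kcnj6 values are uncertain. Kcnj9 overlaps the antisense gene Gm36937, whose counts were 5.26% of its own, and the other 6 genes overlap no annotated gene.

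Total counts were 25477019 to 36570108 per library. All 14 medium spiny neuron markers were above 1 CPM on average in every group, and Drd1 and Ppp1r1b (DARPP-32) were detected at 61.8 CPM or more and 286 CPM or more in every library. CPM are counts scaled to a common library size, with TMM factors. Markers of cortical glutamatergic neurons varied far more between libraries. Slc17a7, the vesicular glutamate transporter of cortex, was at 4.10 to 1175 CPM in SNI Mef2c libraries, 1.60 to 558 CPM in SNI Gfp libraries, 2.37 to 75.9 CPM in Sham Mef2c libraries and 8.501 to 318 CPM in Sham Gfp libraries. SNI Mef2c library 1 stood apart, with the lowest mean of the medium spiny neuron markers among the 24 libraries, 7.02 on the log2 CPM scale, and the highest mean of the cortical markers, 5.62. Mef2c itself was at 474 to 832 CPM in SNI Mef2c libraries, 133 to 221 CPM in SNI Gfp libraries, 123 to 469 CPM in Sham Mef2c libraries and 139 to 212 CPM in Sham Gfp libraries. All 6 SNI Mef2c libraries were thus above every Sham Mef2c library. Between these 2 groups surgery and the level of Mef2c cannot be told apart. The libraries labelled Sham Mef2c 2 and 5 had 125 and 123 CPM of Mef2c, below every Sham Gfp library, and so go against their label. Several fold changes are therefore also given without these 3 libraries.

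**Figure D1:**
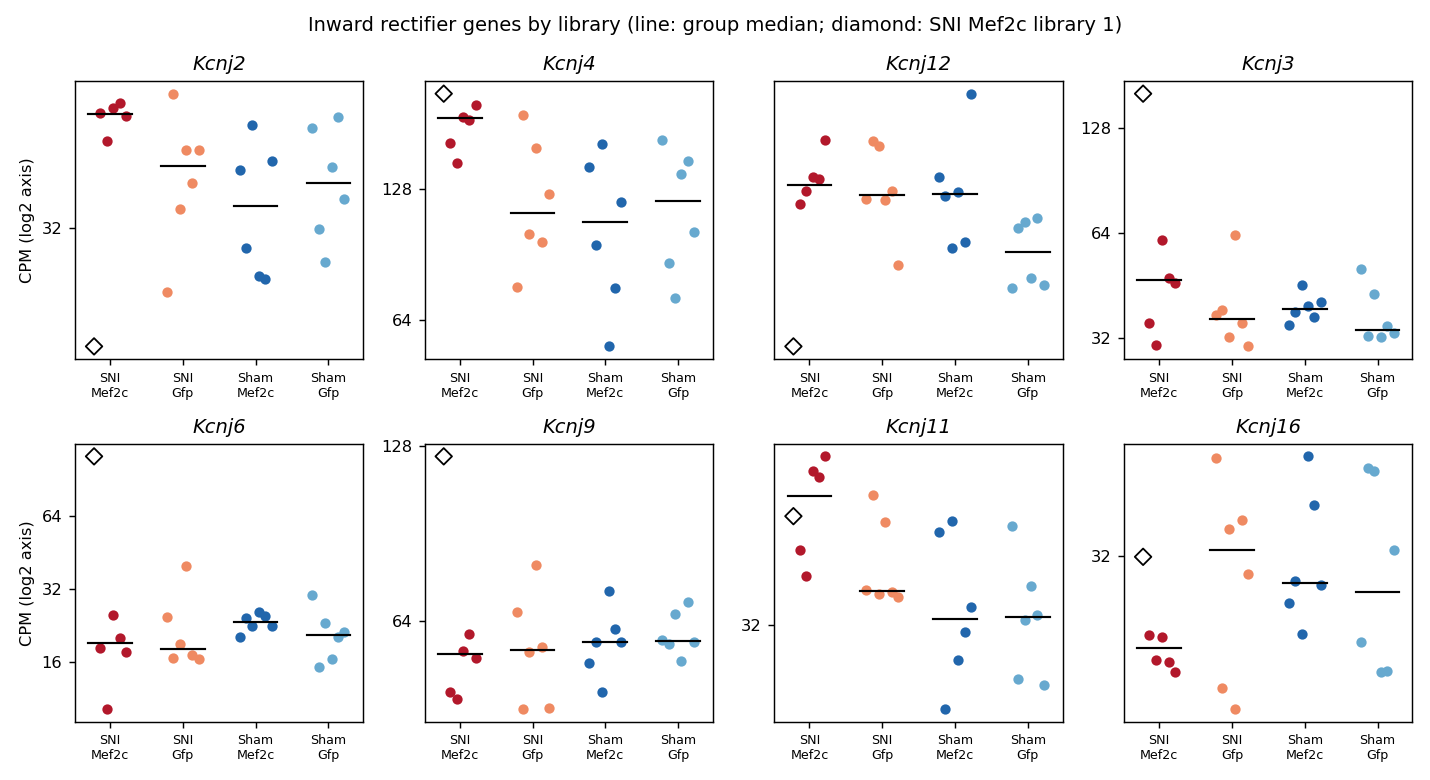
CPM (log2 axis) of the 8 genes in every library, by group, with the group median as a line. SNI Mef2c library 1 is drawn as a diamond: it is the highest of 24 for Kcnj3 (160.5 CPM), Kcnj6 (113 CPM), Kcnj9 (123 CPM) and Kcnj4 (213 CPM), and the lowest for Kcnj2 (20.1 CPM) and Kcnj12 (9.04 CPM).

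Kcnj4 had the highest level of the 8 genes when counts were divided by exon length, at 62.3 ± 21.2 CPM per kb of exon (SD, n = 24). It was followed by Kcnj9 at 14.2 ± 3.65, Kcnj11 at 9.75 ± 1.42, Kcnj3 at 8.62 ± 5.01, Kcnj16 at 7.54 ± 2.12, Kcnj2 at 7.30 ± 1.85, Kcnj12 at 4.39 ± 0.51 and Kcnj6 at 3.31 ± 2.57 CPM per kb of exon. Kcnj4 was above Kcnj9 in all 24 libraries and Kcnj9 above Kcnj11 in 23. Kcnj3, Kcnj16 and Kcnj2 did not separate, since Kcnj3 was above Kcnj16 in 13 libraries and Kcnj16 above Kcnj2 in 10. The deposited FPKM divide by the whole gene span and give another order. On that scale Kcnj9 led at 6.89 ± 1.67 FPKM, with Kcnj4 at 6.19 ± 2.01, Kcnj11 at 5.25 ± 0.68 and Kcnj2 at 3.72 ± 0.92, while Kcnj16, Kcnj3, Kcnj12 and Kcnj6 were all under 1 FPKM in every library (SD, n = 24). Kcnj9 was above Kcnj4 in 13 of 24 libraries on this scale, so their order there was within the spread. Dividing by the span lowers Kcnj3 and Kcnj6, with their long introns, relative to the compact genes.

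Among the classical Kir2 genes, Kcnj4 was highest in SNI Mef2c libraries, with a lowest, median and highest level of 147, 187 and 213 CPM, against 76.3, 113 and 190.5 CPM in SNI Gfp libraries. In sham libraries it had 55.5, 108 and 163 CPM with the Mef2c vector and 71.7, 120.4 and 167 CPM with the Gfp vector. All 6 SNI Mef2c libraries lay above the median of the 24 libraries, 141 CPM. Of these, 5 were above the highest Sham Mef2c library but only 2 above the highest SNI Gfp library. The other 3 groups each spread over more than a doubling. The ranges overlapped in every comparison. The mean was 183 ± 24.02 CPM in SNI Mef2c libraries and 109 ± 41.1 CPM in Sham Mef2c libraries (SD, n = 6 each), a log2 fold change of 0.75 (SE 0.25). Against SNI Gfp libraries, which had 125 ± 43.0 CPM (SD, n = 6), the log2 fold change was 0.55 (SE 0.25). These are the values for which the gene was picked, and no p is given. Leaving out any one library kept the first between 0.61 and 0.89 and the second between 0.44 and 0.70, and leaving out Sham Mef2c libraries 2 and 5 together gave 0.60 for the first.

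Kcnj2, the Kir2.1 gene, followed Kcnj4 in most libraries. It had a lowest, median and highest level of 20.1, 50.1 and 52.5 CPM in SNI Mef2c libraries, against 24.9, 40.9 and 54.4 CPM in SNI Gfp libraries. With a sham operation it had 26.2, 34.9 and 48.0 CPM with the Mef2c vector and 28.0, 38.3 and 49.7 CPM with the Gfp vector. Apart from SNI Mef2c library 1, the lowest of all 24, the SNI Mef2c libraries were tightly grouped between 45.1 and 52.5 CPM. Kcnj12, the Kir2.2 gene, was scarce and even. Its lowest, median and highest levels were 9.04, 12.6 and 13.9 CPM in SNI Mef2c libraries, 10.7, 12.4 and 13.9 CPM in SNI Gfp libraries, 11.1, 12.4 and 15.3 CPM in Sham Mef2c libraries and 10.2, 10.99 and 11.8 CPM in Sham Gfp libraries. The Sham Gfp group had the lowest median of Kcnj12: 5 of 6 SNI Gfp libraries and 4 of 6 Sham Mef2c libraries were above its highest library, although the ranges overlapped.

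For the GIRK subunits the widest spread came from single libraries. Kcnj3 (GIRK1) had a lowest, median and highest level of 30.6, 46.8 and 160.5 CPM in SNI Mef2c libraries, against 30.3, 36.3 and 63.3 CPM in SNI Gfp libraries. In sham libraries the Kcnj3 values were 34.9, 38.8 and 45.3 CPM with the Mef2c vector and 32.1, 33.8 and 50.6 CPM with the Gfp vector. Apart from SNI Mef2c library 1 at 160.5 CPM and SNI Gfp library 4 at 63.3 CPM, the 4 groups overlapped but reached different heights. The other SNI Mef2c libraries went up to 61.0 CPM and the other SNI Gfp libraries up to 38.5 CPM. With library 1 included, 4 SNI Mef2c libraries were above the highest Sham Mef2c library and 1 was below the lowest. Kcnj6 (GIRK2) ran at 10.2, 19.3 and 113 CPM in SNI Mef2c libraries and 16.5, 18.1 and 39.9 CPM in SNI Gfp libraries. The sham values of Kcnj6 were 20.4, 23.5 and 25.8 CPM with the Mef2c vector and 15.3, 20.8 and 30.5 CPM with the Gfp vector. The same 2 libraries were the highest for Kcnj6, at 113 and 39.9 CPM, and 4 of the other 5 SNI Mef2c libraries were below every Sham Mef2c library. Kcnj9 (GIRK3) had 46.9, 56.0 and 123 CPM in SNI Mef2c libraries, 45.1, 57.1 and 80.0 CPM in SNI Gfp libraries, 48.2, 58.8 and 72.0 CPM in Sham Mef2c libraries and 54.6, 59.1 and 68.9 CPM in Sham Gfp libraries. Its highest levels were again in SNI Mef2c library 1 and SNI Gfp library 4, and the 4 medians lay between 56.0 and 59.1 CPM.

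Kcnj11, the KATP pore gene, was even across libraries, with the highest of 24 only 1.70 times the lowest. It had 35.4, 41.9 and 45.6 CPM as lowest, median and highest in SNI Mef2c libraries, against 33.9, 34.3 and 41.98 CPM in SNI Gfp libraries. The sham levels of Kcnj11 were 26.8, 32.3 and 39.8 CPM with the Mef2c vector and 28.2, 32.5 and 39.3 CPM with the Gfp vector. Of the 6 SNI Mef2c libraries, 4 were above the highest Sham Mef2c library and none was below the lowest. Kcnj16, the Kir5.1 gene, ran the other way. It had 21.6, 23.4 and 32.0 CPM in SNI Mef2c libraries, 19.02, 32.7 and 44.8 CPM in SNI Gfp libraries, 24.6, 29.2 and 44.99 CPM in Sham Mef2c libraries and 21.5, 28.3 and 43.2 CPM in Sham Gfp libraries. In 5 of 6 SNI Mef2c libraries Kcnj16 was below the lowest Sham Mef2c library, and library 1 was the exception.

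None of the genes passed the test in any comparison, and their ranges overlapped in all 4 comparisons of groups. Ranges did not overlap for 0.303% of all genes tested between SNI Gfp and Sham Gfp, 1.1% between SNI Mef2c and Sham Mef2c, 5.97% between Sham Mef2c and Sham Gfp and 0.556% between SNI Mef2c and SNI Gfp. All 8 passed the filter on low counts, and edgeR's quasi-likelihood test was run over 23738 genes with Benjamini-Hochberg adjustment over all of them and a threshold of 0.05. Between SNI Gfp and Sham Gfp libraries 0 of 8 were called, where 0% of all genes were, and 1 of the 8 had an unadjusted p under 0.05. That one was Kcnj12, whose SNI Gfp libraries exceeded Sham Gfp libraries by 0.19 on the log2 scale (SE 0.09, adjusted p = 0.395). The other 7 lay between -0.06 for Kcnj9 and 0.16 for Kcnj11, and Kcnj4 was at 0.07 (SE 0.25, adjusted p = 0.957). DESeq2 called 0 of the 8 here as well, and limma-voom with quality weights called Kcnj12 (0.24, adjusted p = 0.0382), in a fit that called 2794 of all genes, or 11.8%.

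Between SNI Mef2c and Sham Mef2c libraries 0 of the 7 genes tested were called, where again 0% of all genes were, and 2 had an unadjusted p under 0.05. Kcnj3 was at 0.70 (SE 0.29, adjusted p = 0.252) and Kcnj11 at 0.30 (SE 0.10, adjusted p = 0.223) on the log2 fold change scale. Kcnj6 was at 0.54 (SE 0.41), Kcnj2 at 0.34 (SE 0.22), Kcnj9 at 0.14 (SE 0.19), Kcnj12 at -0.04 (SE 0.09) and Kcnj16 at -0.39 (SE 0.22). The median over these 7 genes was 0.30 with all libraries, against -0.002 over all genes tested, as a description. It was not recomputed without SNI Mef2c library 1, where the values were spread on both sides of 0. Without that library the GIRK values changed most: Kcnj3 was at 0.17, Kcnj6 at -0.36 and Kcnj9 at -0.14. Kcnj11 stayed at 0.31, Kcnj2 was at 0.49, Kcnj16 was at -0.49, and Kcnj12 turned positive, at 0.03 at most. Without Sham Mef2c libraries 2 and 5, Kcnj3 was at 0.66, Kcnj6 at 0.57, Kcnj11 at 0.21, Kcnj2 at 0.20, Kcnj9 at 0.16, Kcnj12 at -0.08 and Kcnj16 at -0.36. DESeq2 and limma-voom called 0 of the 7.

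The Mef2c and Gfp vectors were compared within each surgery, and these comparisons share libraries with the ones above. With SNI, 0 of 7 genes were called, where 0.00421% of all genes were, and only Kcnj3 had an unadjusted p under 0.05, at 0.68 (SE 0.29, adjusted p = 0.301). Without SNI Mef2c library 1 that value was 0.16 (SE 0.18, adjusted p = 0.664). With a sham operation 0 of 7 were called, although 9.41% of all genes were, 1.48% higher and 7.93% lower with the Mef2c vector. All 8 genes lay between -0.14 (Kcnj2) and 0.19 (Kcnj12) there, and Kcnj12 alone had an unadjusted p under 0.05 (SE 0.09, adjusted p = 0.230). Leaving out Sham Mef2c libraries 2 and 5 also left 0 of 7 called, with Kcnj2 at 0.01 and Kcnj12 at 0.24. The test of whether the effect of SNI differed between the vectors called 0 of 7, where 0% of all genes were called. None of those 7 had an unadjusted p under 0.05. This test holds both Mef2c vector groups, so it cannot tell surgery from the level of Mef2c either. DESeq2 called 0 of the 7 in these 3 comparisons.

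**Figure D2:**
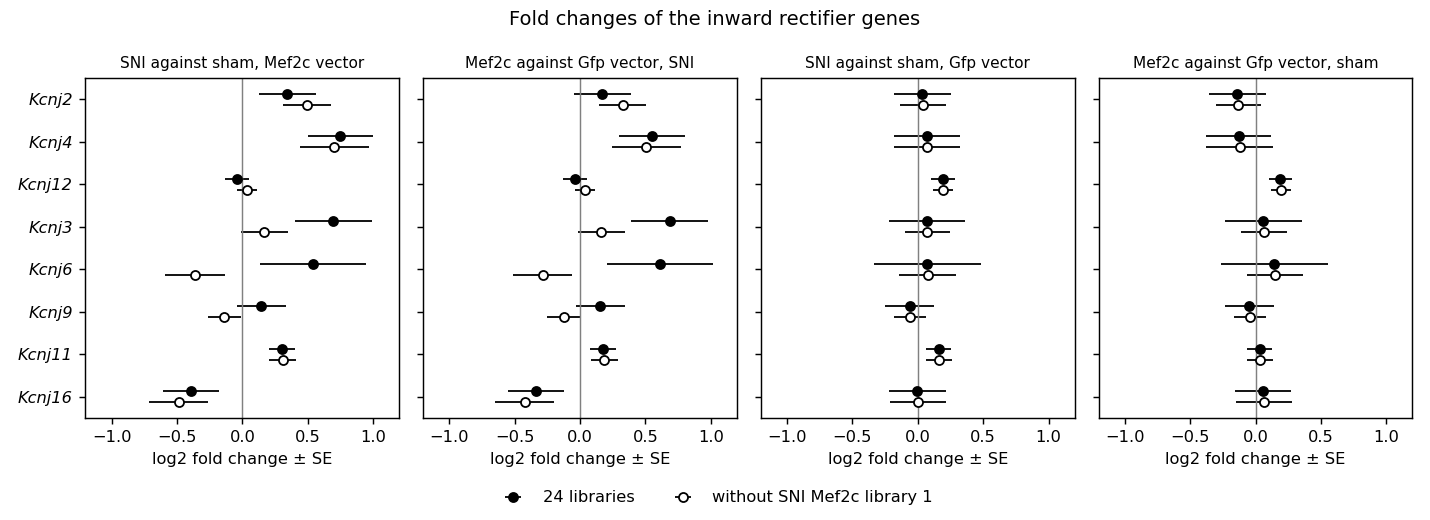
Log2 fold changes with standard errors for the 8 genes in 4 comparisons, from all 24 libraries (filled) and without SNI Mef2c library 1 (open). The GIRK genes Kcnj3 and Kcnj6 shift most between the filled and open points, in both comparisons that hold the SNI Mef2c group.

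The level of Kcnj4 is set here beside the means of marker genes in each library, as a description with no test, since the gene was picked on these levels. With the mean of the medium spiny neuron markers, Pearson's r was 0.67 and Spearman's rho 0.73 over 24 libraries, on log2 CPM. Without the 2 libraries farthest from the median of the marker mean, SNI Mef2c library 1 and Sham Mef2c library 4, r was 0.97. Within groups r was -0.50 in SNI Mef2c libraries (0.66 without library 1), 0.968 in SNI Gfp libraries, 0.996 in Sham Mef2c libraries and 0.987 in Sham Gfp libraries. With the cortical markers r was 0.65 and rho 0.66, and r was 0.60 without the 2 farthest libraries, SNI Mef2c library 1 and SNI Gfp library 4. Within groups this r was 0.92 in SNI Mef2c libraries (0.89 without library 1), 0.69 in SNI Gfp, 0.66 in Sham Mef2c and 0.865 in Sham Gfp libraries. With the markers of oligodendrocyte precursors r was -0.73 and rho -0.66, and r was -0.67 without the 2 farthest libraries. In bulk tissue, fewer cells of a type and less RNA per cell cannot be told apart.

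The medium spiny neuron marker mean was 7.02 to 8.83 on the log2 CPM scale in SNI Mef2c libraries (8.60 to 8.83 without library 1), 7.62 to 8.73 in SNI Gfp libraries, 7.34 to 8.63 in Sham Mef2c libraries and 7.38 to 8.501 in Sham Gfp libraries. The group means were 8.40 ± 0.68 in SNI Mef2c, 8.17 ± 0.38 in SNI Gfp, 8.05 ± 0.50 in Sham Mef2c and 8.09 ± 0.46 in Sham Gfp libraries (SD, n = 6 each). The ranges overlapped, and a difference in the marker mean between groups was not tested. With the marker mean as a covariate the Kcnj4 log2 fold change of SNI Mef2c over Sham Mef2c libraries was 0.70 (SE 0.20) with all libraries and 0.09 (SE 0.07) once library 1 was left out. The mean of the cortical markers as a covariate gave 0.50 (SE 0.20), and both means together gave 0.38 (SE 0.13). For SNI Mef2c over SNI Gfp libraries the medium spiny neuron covariate gave 0.54 (SE 0.20) with all libraries and -0.0025 (SE 0.07) once library 1 was left out. There the cortical covariate gave 0.34 (SE 0.20) and both together 0.26 (SE 0.13).

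**Figure D3:**
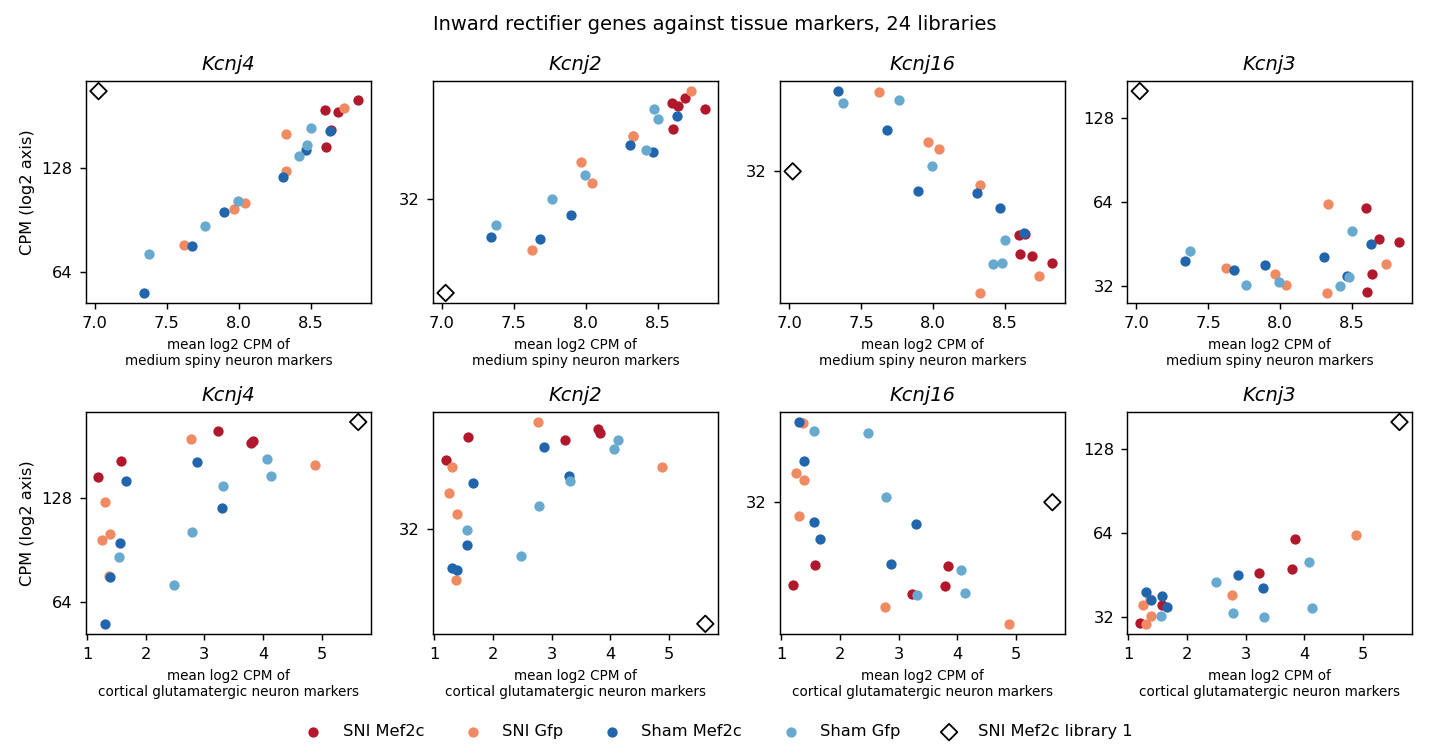
CPM (log2 axis) of Kcnj4, Kcnj2, Kcnj16 and Kcnj3 in 24 libraries against the mean log2 CPM of medium spiny neuron markers (upper row) and cortical glutamatergic neuron markers (lower row). Kcnj4 and Kcnj2 climb and Kcnj16 declines along the upper axis, and SNI Mef2c library 1 (diamond) leaves the line of Kcnj4 but not that of Kcnj2.

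Kcnj2 followed the same markers, SNI Mef2c library 1 included. Its r with the medium spiny neuron marker mean was 0.96 and rho 0.95 over 24 libraries, each with permutation p = 1e-05, the smallest that 100000 permutations can give, and adjusted p = 0.0004. Adjusted values here are over 80 relations, of the 8 genes with 10 marker lists, and not all of those under 0.05 are set out below. Among the others, by permutation, were Kcnj12 with the astrocyte markers (r = -0.58, adjusted p = 0.0169) and Kcnj2 with the precursor markers (r = -0.665, adjusted p = 0.00391). Kcnj11 had r = -0.58 with the precursor markers (adjusted p = 0.0172) and r = -0.56 with the choroid plexus and ependyma markers (adjusted p = 0.0192). For Kcnj2 with the medium spiny neuron markers, r was 0.945 without the 2 farthest libraries and 0.95 to 0.99 within the 4 groups. It was 0.23 in SNI Mef2c libraries without library 1, whose marker means differ little. With the marker mean as a covariate the log2 fold change of Kcnj2 between SNI Mef2c and Sham Mef2c libraries was 0.05 (SE 0.06). Kcnj4 and Kcnj2 thus parted in 1 library. The ratio of Kcnj4 to Kcnj2 counts was 10.6 in SNI Mef2c library 1 and between 2.10 and 4.03 in the other 23 libraries, with a median of 3.22.

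Kcnj16 declined along the same axis, with r = -0.83 and rho = -0.82 (each permutation p = 1e-05, adjusted p = 0.0004), r = -0.89 without the 2 farthest libraries and -0.96 to -0.88 within the 4 groups (-0.70 in SNI Mef2c libraries without library 1). It also followed the 5 markers of oligodendrocyte precursors, with r = 0.80 (permutation p = 2e-05, adjusted p = 0.000533) and rho = 0.72 (permutation p = 9e-05, adjusted p = 0.0018), and r = 0.77 without the 2 farthest libraries. This was not particular to precursors, since r with the oligodendrocyte markers was 0.62 (permutation p = 0.00137, adjusted p = 0.00996). With the astrocyte markers r was 0.28 (permutation p = 0.181, adjusted p = 0.329). Within groups r with the precursor markers was 0.73 in SNI Mef2c (0.28 without library 1), 0.75 in SNI Gfp, 0.85 in Sham Mef2c and 0.84 in Sham Gfp libraries. With the medium spiny neuron marker mean as a covariate the Kcnj16 log2 fold change of SNI Mef2c over Sham Mef2c libraries was -0.15 (SE 0.13), and 0.08 (SE 0.12) once library 1 was left out.

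Kcnj11 followed the medium spiny neuron markers less closely, with r = 0.56 (permutation p = 0.00483, adjusted p = 0.0215) and rho = 0.67 (permutation p = 0.00037, adjusted p = 0.00592), and r = 0.74 without the 2 farthest libraries. Within groups r was 0.16 in SNI Mef2c libraries (0.59 without library 1), 0.76 in SNI Gfp, 0.79 in Sham Mef2c and 0.56 in Sham Gfp libraries. Kcnj9 was inversely related to them, with r = -0.68 (permutation p = 0.00024, adjusted p = 0.0032) and rho = -0.61 (permutation p = 0.00206, adjusted p = 0.0165), and r = -0.46 without the 2 farthest libraries. Within groups r was -0.94 in SNI Mef2c libraries (0.35 without library 1), -0.47 in SNI Gfp, -0.94 in Sham Mef2c and -0.18 in Sham Gfp libraries, so the relation of Kcnj9 was uneven between groups.

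Kcnj3 followed the cortical markers. Its r was 0.75 (permutation p = 3e-05, adjusted p = 0.0006) and rho 0.61 (permutation p = 0.00187, adjusted p = 0.0165) over 24 libraries, and r was 0.62 without SNI Mef2c library 1 and SNI Gfp library 4. Within groups r was 0.93 in SNI Mef2c, 0.94 in SNI Gfp, 0.68 in Sham Mef2c and 0.39 in Sham Gfp libraries. The cortical marker mean was 1.19 to 5.62 on the log2 CPM scale in SNI Mef2c libraries, 1.25 to 4.88 in SNI Gfp, 1.30 to 3.30 in Sham Mef2c and 1.55 to 4.14 in Sham Gfp libraries. Of its 13 markers, 13, 12, 12 and 12 averaged at least 1 CPM in those groups. With it as a covariate the Kcnj3 log2 fold change of SNI Mef2c over Sham Mef2c libraries was 0.11 (SE 0.19). The relations of Kcnj6 and Kcnj9 with the cortical markers, r = 0.64 (permutation p = 0.00043, adjusted p = 0.00391; rho = 0.41, permutation p = 0.0465, adjusted p = 0.186) and r = 0.56 (permutation p = 0.00384, adjusted p = 0.0192; rho = 0.33, permutation p = 0.119, adjusted p = 0.307), were uneven. Without those 2 libraries r was 0.30 for Kcnj6 and 0.14 for Kcnj9. Within groups r of Kcnj6 was 0.87 in SNI Mef2c (0.80 without library 1), 0.77 in SNI Gfp, -0.42 in Sham Mef2c and 0.57 in Sham Gfp libraries. That of Kcnj9 was 0.88 in SNI Mef2c (0.97 without library 1), 0.53 in SNI Gfp, -0.56 in Sham Mef2c and 0.26 in Sham Gfp libraries.

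**Figure D4:**
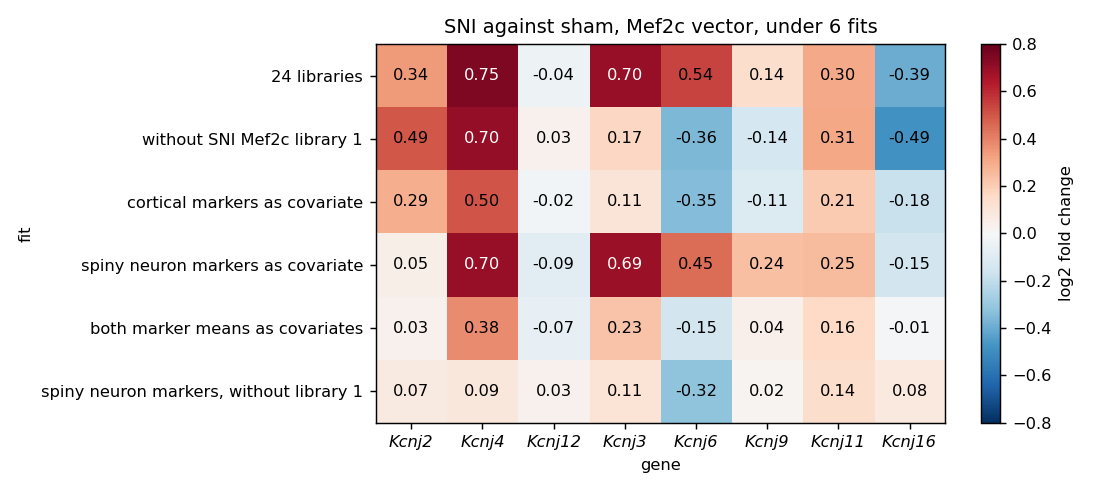
Log2 fold change of SNI Mef2c over Sham Mef2c libraries for the 8 genes (columns) under 6 fits (rows), red above 0 and blue below. Kcnj4 ranges from 0.75 with all libraries to 0.09 with the medium spiny neuron markers as a covariate and library 1 left out. Kcnj6, Kcnj9, Kcnj12 and Kcnj16 change sign between fits.

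Genes whose pattern over the 24 libraries was most like each channel were sought among 12498 named genes by Pearson's r on log2 CPM. For Kcnj4 they were C1qtnf4, Chn1os1, Speg, Chn1 and Cnksr2, with r of 0.99, 0.99, 0.99, 0.98 and 0.98. Chn1os1 shares its span with Chn1, so those 2 are not separate. Without SNI Mef2c library 1 the r of these 5 was 0.98 to 0.99, so their likeness to Kcnj4 did not rest on that library. The gene most like Kcnj2 was Bcr (r = 0.97), for Kcnj11 it was Kcna1 (0.96), a voltage-gated potassium channel gene, and for Kcnj16 it was Flii (0.96). Kcnj3 was most like Fam163b (0.98), Kcnj9 most like Basp1 (0.95), Kcnj6 most like Ube2ql1 (0.93) and Kcnj12 most like Hs2st1 (0.81). For Kcnj6 and Kcnj12 the values without library 1 were 0.82 and 0.74.

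Of the 7 other Kcnj genes 5 passed the filter, and 0 of 5 were called in each of the 5 comparisons. Kcnj10, the glial Kir4.1 gene, was at 293 to 316 CPM in SNI Mef2c libraries, against 322 to 474 CPM in SNI Gfp libraries. These ranges do not overlap. The log2 fold change was -0.31 (SE 0.11, adjusted p = 0.230) and -0.32 without SNI Mef2c library 1, and 0.227% of all genes tested were lower without overlap in that comparison. Astrocyte markers, 9 of 9 of them above 1 CPM, had a mean of 6.95 to 7.27 on the log2 CPM scale in SNI Mef2c libraries and 6.97 to 7.15 in SNI Gfp libraries, and their part in this difference was not tested. Kcnj5, the GIRK4 gene, was at 0.73 to 3.85 CPM in SNI Mef2c libraries and 3.9995 to 8.81 CPM in Sham Mef2c libraries, again without overlap. Its log2 fold change was -1.13 (SE 0.39, adjusted p = 0.223), -0.94 without SNI Mef2c library 1 and -1.01 without Sham Mef2c libraries 2 and 5, and 0.695% of all genes were lower without overlap there. With the Gfp vector Kcnj5 was at 1.50 to 8.22 CPM in SNI and 1.65 to 5.32 CPM in sham libraries, overlapping both. The log2 fold change was 0.54 (SE 0.39, adjusted p = 0.667) for SNI Gfp over Sham Gfp libraries. It was 0.81 (SE 0.39, adjusted p = 0.231) for Sham Mef2c over Sham Gfp libraries. Kcnj8, the Kir6.1 gene, was at 1.83 to 4.17 CPM over all libraries, and Kcnj14, the Kir2.4 gene, at 1.80 to 3.09 CPM. Kcnj13 was highest in SNI Gfp library 6, at 6.39 CPM, and overlaps Gigyf2, which had far more counts, so its values are uncertain. That library also had the highest mean of the choroid plexus and ependyma markers, 3.75 on the log2 CPM scale. One of these markers, Ttr, was at 810 CPM there. The part of tissue content in the Kcnj13 value was not tested.

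Abcc8, the sulfonylurea receptor that partners Kcnj11 in neuronal KATP channels, was at 27.4 to 50.2 CPM in SNI Mef2c libraries and 22.4 to 32.1 CPM in Sham Mef2c libraries. Its log2 fold change was 0.38 (SE 0.12, adjusted p = 0.223), and 3 of the 6 SNI Mef2c libraries were above every Sham Mef2c library. Without SNI Mef2c library 1 the SNI Mef2c range was 27.4 to 36.8 CPM and the log2 fold change 0.24 (SE 0.10), and without Sham Mef2c libraries 2 and 5 it was 0.33 (SE 0.13). Abcc9, the other sulfonylurea receptor, had 0.15 (SE 0.11, adjusted p = 0.530). Neither was called in any comparison.

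Among G protein subunits and RGS proteins that act on GIRK channels, 0 of 27 tested were higher and 2 were lower in Sham Mef2c than in Sham Gfp libraries, where 9.41% of all genes were called, 1.48% higher and 7.93% lower. Gng12, a G protein γ subunit, was at 53.4 to 60.1 CPM in Sham Mef2c and 58.5 to 72.2 CPM in Sham Gfp libraries, which is -0.30 as a log2 fold change (SE 0.08, adjusted p = 0.0155). Rgs19, which speeds the shut-off of inhibitory G proteins, was at -0.27 (SE 0.08, adjusted p = 0.0435), a call lost in 18 of 39 other fits. The Gng12 call was lost only without Sham Mef2c libraries 2 and 5. Among 25 receptors that couple to GIRK channels 1 was called in that comparison, as a higher gene beside 1.48% of all genes, the GABA-B receptor subunit gene Gabbr1, which was at 748 to 823 CPM in Sham Mef2c and 692 to 733 CPM in Sham Gfp libraries. Its log2 fold change was 0.14 (SE 0.04, adjusted p = 0.0319), and the call was lost in 13 of 39 other fits, among them those without Sham Mef2c libraries 1, 2 or 3 or Sham Gfp libraries 2, 5 or 6. The 22 scaffold, trafficking and PIP2 genes held 0 calls in every comparison.

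Two-pore channels, the other large class of resting potassium conductances, held 2 calls among 12 tested in that comparison, 1 higher and 1 lower, beside 9.41% of all genes called. The microglia markers also separated these groups. All 8 of 8 were above 1 CPM on average, and their mean was 5.05 to 5.53 on the log2 CPM scale in Sham Mef2c libraries and 5.60 to 5.93 in Sham Gfp libraries, without overlap. Their part in the calls of these lists was not tested. Kcnk6 (TWIK-2) was lower, at 5.39 to 6.70 CPM in Sham Mef2c libraries and 7.31 to 15.7 CPM in Sham Gfp libraries, with no overlap (log2 fold change -0.98, SE 0.18, adjusted p = 0.000747), where 5.21% of all genes were lower without overlap. Kcnk12 (THIK-2) was higher, at 8.67 to 10.4 CPM in Sham Mef2c libraries and 6.80 to 8.79 CPM in Sham Gfp libraries (0.35, SE 0.09, adjusted p = 0.011). Both calls held in all 39 other fits. In the other 4 comparisons these lists held 0 calls.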

How the data were processed

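Nucleus accumbens libraries, 6 in each of 4 groups, were taken as labelled. The authors deposited raw counts per gene, made with featureCounts on mm10 per the submitters' processing notes, and FPKM. The sources used here do not give the aligner, the annotation or the strand setting. Of the deposited FPKM values above 0, 100% equalled count over library total over gene span, introns included, within a relative tolerance of 1e-06, so counts may hold unspliced and antisense reads. Of 55401 gene IDs, 55141 matched a GENCODE symbol, 54349 of them with the ID version.

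Counts were fitted with edgeR 4.0.16 in R 4.3.3 (filterByExpr, TMM, robust quasi-likelihood test, 1 coefficient per group, 24 libraries, 20 residual degrees of freedom). P-values are two-sided, and SE is the fold change over the root of F. Marker and correlation values are log2 CPM with a prior count of 2. No pair of libraries within a group was a copy (smallest chi-square per degree of freedom 3.22). Alternatives used DESeq2 1.42.0, limma 3.58.1, other scalings and filters, marker covariates and left-out libraries. The script was tested on simulated data. Genes named from other lists are those past the threshold, up to 4 a list, with the other Kcnj genes, Abcc8 and Abcc9 added after their values were seen. Likeness was sought among named genes of at least 5 CPM, with 5 genes for Kcnj4 and 1 for each other. The members and lists were chosen with earlier results of these data known.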

Additional observations from a re-analysis of the deposited data

Results flagged for a closer look

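Of 32 sets of 6 libraries (8 genes in 4 groups), 8 held a library whose gap to its nearest neighbour exceeded Dixon's 95% critical value of 0.625 as a share of the range. Chance flags about 1 in 20 sets that are independent of each other. The sets here share libraries, and all 8 flags come from 2 libraries, so that rate does not apply to their number. In SNI Mef2c library 1, Kcnj3 was at 160.5 CPM, with the next library at 61.0 CPM. Kcnj6 was at 113 CPM there, with the next at 25.0 CPM, and Kcnj9 at 123 CPM, with the next at 60.7 CPM. Kcnj16 was at 32.0 CPM in that library, with the next at 24.5 CPM. The same library was the lowest of its group for Kcnj2, at 20.1 CPM with the next at 45.1 CPM, and for Kcnj12, at 9.04 CPM with the next at 12.2 CPM. In SNI Gfp library 4, Kcnj3 was at 63.3 CPM, with the next library at 38.5 CPM, and Kcnj6 at 39.9 CPM, with the next at 24.6 CPM. These 2 libraries also had the highest means of the cortical markers of all 24, at 5.62 and 4.88 on the log2 CPM scale. The part of tissue content in these values was not tested.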

How the results depend on the processing

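When each library was left out in turn, 0 of the genes were called in each fit and each of the 5 comparisons. Of 39 other settings, limma-voom with quality weights called 1 in SNI Gfp against Sham Gfp libraries (Kcnj12), and both marker means as covariates, added after seeing the data, called 2 in Sham Mef2c against Sham Gfp libraries (Kcnj3 at 0.39 and Kcnj6 at 0.55), in a fit that called 2995 of all genes, or 12.6%. The causes were not tested.

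Kcnj6 changed sign. For SNI Mef2c over Sham Mef2c libraries it was -0.32 by limma-voom, -0.35 with the cortical covariate, -0.15 with both covariates, -0.32 with the spiny neuron covariate and without library 1, and -0.36 without SNI Mef2c library 1 alone (0.72 at most without another library). For SNI Mef2c over SNI Gfp libraries the values were -0.11, -0.13, -0.025, -0.25 and -0.29 (0.86 at most without another library). The interaction of Kcnj3 was -0.21 with the cortical and -0.13 with both covariates, and that of Kcnj11 -0.025 and -0.054. Kcnj16 was at 0.075 (SNI Mef2c over Sham Mef2c) and 0.060 (SNI Mef2c over SNI Gfp) with the spiny neuron covariate and without library 1, and its interaction was 0.066 with both covariates.

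The number of all genes called moved far more. SNI Gfp against Sham Gfp gave 0 with edgeR (2928 at an unadjusted p under 0.05), 553 with DESeq2, 2794 with limma-voom, 742 and 790 on FPKM with pseudocounts of 1 and 0.1, 638 with the spiny neuron covariate and without SNI Mef2c library 1, 880 without Sham Gfp library 3 and 1392 without SNI Gfp library 6. SNI Mef2c against Sham Mef2c gave 0 (3816 unadjusted) and 13 with DESeq2. Sham Mef2c against Sham Gfp gave 2233, 4437 with limma-voom, 4509 with the spiny neuron covariate and without library 1, and 3602 without Sham Gfp library 3. SNI Mef2c against SNI Gfp gave 1, 438 with DESeq2, 13 with limma-voom, and 153, 379 and 162 without SNI Gfp libraries 1, 2 and 5. The interaction gave 0 (3529 unadjusted), 1 with DESeq2, 4120 with limma-voom and 269 without SNI Gfp library 6.

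Replicate numbers did not pair the samples: over 36 same-numbered pairs r was -0.43 to 0.28 with a median of -0.02. With the number as a block 0 of the genes were called in every comparison, and 1, 0, 1935, 1 and 0 of all genes, in the order above.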
